A study of Mus musculus with 6 samples.

Results

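The genes described here are 9 transcription factors of neural progenitors and early neurons: *Sox1*, *Pax6*, *Pax3*, *Zic1*, *Neurog1*, *Neurog2*, *Neurod1*, *Hes5* and *Olig2*. They were picked by symbol, with no measured value in the rule but with earlier results of these data known. All 9 were found among the 23420 gene symbols counted in each library. RNA-seq was performed on E14 mouse embryonic stem cells (ESCs) of 2 genotypes, WT and *Patz1* knockout (KO), with 3 libraries per genotype. Every culture received LIF together with PD0325901, a MEK1/2 inhibitor, and CHIR99021, a GSK3 inhibitor, a medium that holds ESCs undifferentiated. The KO was made with CRISPR/Cas9 in the same line, and the study obtained several KO clones. The study describes 3 biological replicates for this comparison. The clone or clones behind these 3 libraries, and whether each library came from its own culture, are not given in the labels. P-values therefore measure the spread between these libraries only. PATZ1 is a zinc finger protein that the study examined as a boundary factor on chromatin, and the comparison asks whether neural regulators were expressed differently without it.

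Neural fate is set by tiers of transcription factors. SOX1, PAX6, PAX3 and ZIC1 mark the neural plate and its progenitors, the proneural bHLH factors NEUROG1, NEUROG2 and NEUROD1 drive progenitors to become neurons, and HES5 is a bHLH repressor that acts downstream of Notch to hold progenitors back from that step. OLIG2 marks the progenitors of motor neurons and oligodendrocytes. In ESCs most of these genes are silent or nearly so, and many carry the paired active and repressive histone marks of poised promoters.

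The promoters of these genes were rich in G and C. RefSeq windows of 250 bases before the annotated start (GRCm38.p6) were found for 8 of the 9 genes, all but *Pax3*, with 9 windows in all since *Pax6* had a pair of starts. Their median G+C content was 66.8% (lowest 47.6%, highest 71.6%), against a median of 52.4% over 32851 windows of all genes. They held a median of 22 CpG, against 6 over all windows. Both strands were searched for GGGAGGG, a G-rich element of the kind that MAZ binds, because the zinc fingers of PATZ1 resemble those of MAZ. A match was present in 5 of the 9 windows, those of *Sox1*, *Neurog1*, *Neurog2*, *Neurod1* and *Zic1*, and in 19.7% of all windows. The windows of all genes were not matched for G+C content, which had the higher median in the 9. TGGGAA, the core recognised by the Notch effector RBPJ, was present in 1 window, that of *Hes5*, and in 21.6% of all windows. No window of these genes held both elements. The windows of *Neurog1* and *Neurog2* are shown for the G-rich element and that of *Hes5* for the RBPJ core, each 5′ to 3′ along the gene with the matches on either strand in capitals. Binding was not measured in these libraries, so the matches only describe the letters.
Neurog1, chr13:56252181-56252430, minus strand: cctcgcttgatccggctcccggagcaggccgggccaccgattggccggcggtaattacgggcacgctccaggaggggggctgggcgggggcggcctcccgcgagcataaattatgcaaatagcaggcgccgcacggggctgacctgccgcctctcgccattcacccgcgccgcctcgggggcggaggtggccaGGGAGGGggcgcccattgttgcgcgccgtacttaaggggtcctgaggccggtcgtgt
Neurog2, chr3:127632886-127633135, plus strand: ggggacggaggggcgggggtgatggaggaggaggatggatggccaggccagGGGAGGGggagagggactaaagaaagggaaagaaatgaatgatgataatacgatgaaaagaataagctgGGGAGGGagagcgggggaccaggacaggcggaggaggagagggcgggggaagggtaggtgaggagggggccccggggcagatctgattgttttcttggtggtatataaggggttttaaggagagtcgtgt
Hes5, chr4:154960673-154960922, plus strand: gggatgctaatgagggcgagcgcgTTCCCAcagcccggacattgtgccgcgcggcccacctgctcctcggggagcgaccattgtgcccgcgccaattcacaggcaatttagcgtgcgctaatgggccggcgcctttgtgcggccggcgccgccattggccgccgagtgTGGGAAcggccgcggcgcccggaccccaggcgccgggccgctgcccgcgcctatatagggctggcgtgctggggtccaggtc

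The libraries were checked before the genes were compared. Totals ran from 37573923 to 47721070 counts in replicates 1 and 2 of both genotypes, and were 11040756 in WT and 11420268 in KO replicate 3. Replicate 3 also stood apart by its share of *Rn45s*, the ribosomal RNA precursor, at 14.4% and 12.5% against at most 3.03% elsewhere. *Patz1* was lower in every KO library, at 853 to 862 normalized counts (counts divided by the size factor of the library) against 1838 to 1983 in WT, and its log2 fold change of KO over WT (log2FC) was -1.14 (SE 0.10, DESeq2 adjusted p = 1.58e-26). The ESC label was borne out by the marker genes: *Pou5f1* reached 518 CPM per kb of exon in WT and 559 in KO (CPM being the count scaled to a common library total), and *Nanog* 232 and 229. The median of all genes with a count was 1.40 on this scale. A count of 3 was taken as the floor of detection, which equalled 1.69 to 2.12 normalized counts in replicates 1 and 2 and 7.93 to 8.21 in replicate 3. Without molecular identifiers, floors and counting intervals cover counting error only.

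None of the 9 neural factors passed the threshold of an adjusted p under 0.05. DESeq2 gave an adjusted p to 4 of them, *Sox1*, *Neurod1*, *Pax6* and *Zic1*, and called 0 of 4, where 7.49% of all tested genes were called, 2.7% as higher in KO and 4.78% as lower. An unadjusted p under 0.05 was reached by 0 of the 9, and 0 of 4 were called by edgeR and 0 of 4 by limma-voom. The other 5 genes were too low for an adjusted p, the lowest mean normalized count with one being 5.003. The libraries of WT and KO overlapped for all 9 genes, including the 4 with an adjusted p. They did not overlap for 25.6% of all genes with an adjusted p. In bulk RNA, a few cells with much of a transcript cannot be told apart from many cells with little of it.

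**Figure D1:**
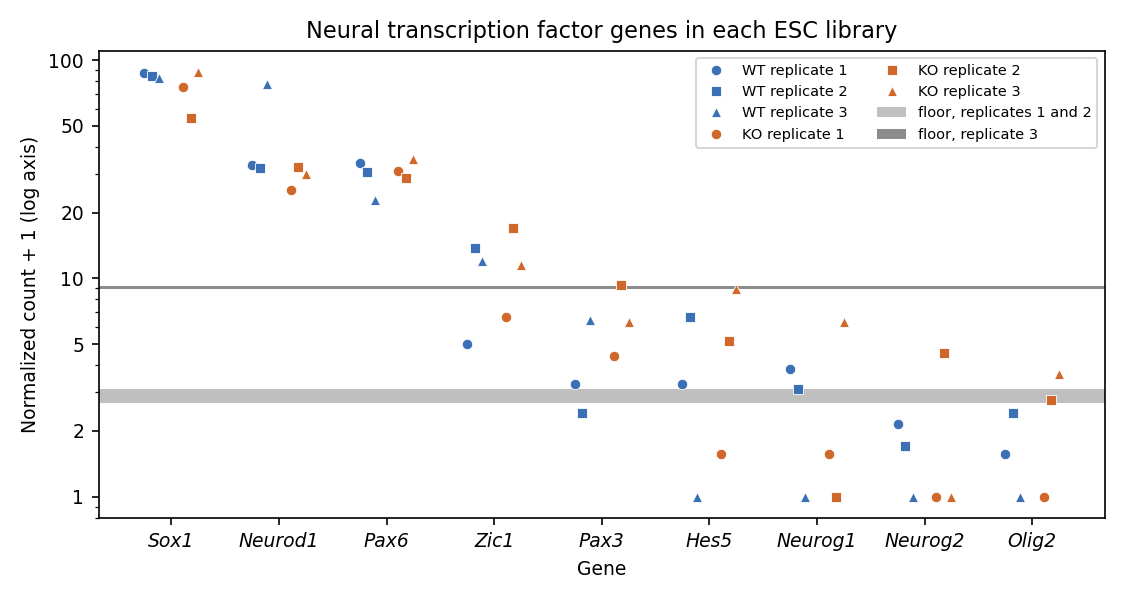
Normalized count + 1 (log axis) of each neural factor gene in every library, WT in blue and *Patz1* KO in orange, with a marker shape for each replicate. Grey bands mark the floor of 3 counts, which was lower in the deep replicates 1 and 2 than in replicate 3. *Sox1*, *Neurod1* and *Pax6* lay above every floor in all 6 libraries, and the colours overlapped for each gene.

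*Sox1* encodes an HMG box factor that is among the earliest markers of neuroectoderm. The gene (chr8:12395295-12400126, plus strand, protein coding, GENCODE M21 on GRCm38) was measured in WT replicates 1 to 3 at 86.4, 83.3 and 82.1 normalized counts, and KO replicates 1 to 3 held 73.9, 53.4 and 87.2. The WT libraries lay close together, and KO fell on both sides of them, with replicate 2 the lowest. The log2FC was -0.28 (SE 0.27, 95% interval -0.81 to 0.24, DESeq2 adjusted p = 0.709), so the interval ran from 0.570 to 1.18 times the WT level. It was -0.09 without KO replicate 2 and -0.41 without both replicate 3 libraries. Summed over libraries, 299 and 254 reads gave a scaled ratio of 0.782 with a counting interval of 0.659 to 0.927. This interval leaves out the spread between libraries that the fit includes.

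*Sox1* was the one gene of the 9 with a mean of at least 50 normalized counts, so its pattern over the 6 libraries could be set beside those of other genes. Among 11523 genes of at least that mean, the 3 most alike were *Irak2* (Pearson r = 0.992 of log2 of normalized count + 1), *Zfp27* (0.992) and *Gbf1* (0.990), and 50 genes exceeded 0.9. The points share the depth and the replicate of their library, and the values are a description over 6 points. A transcript counted as *Gm5607* (*Sox1ot* in GENCODE, chr8:12385771-12436768) spans *Sox1* on the same strand and shares 0 exon bases with it. Its mean was 124 ± 5.61 in WT against 145 ± 45.3 normalized counts in KO (SD, n = 3), with a log2FC of 0.19 (SE 0.25, DESeq2 adjusted p = 0.824). In KO, *Gm5607* and *Sox1* were both lowest in replicate 2 and highest in replicate 3.

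*Pax6* encodes a paired box and homeodomain factor of forebrain, eye and spinal cord progenitors. The gene (chr2:105668900-105697364, plus strand) had 32.6, 29.7 and 21.9 normalized counts in the WT libraries, and 29.9, 27.9 and 34.4 in those of KO. The deep libraries of both genotypes lay within a narrow range, and replicate 3 held the lowest value of WT and the highest of KO. The log2FC was 0.05 (SE 0.39, 95% interval -0.72 to 0.82, DESeq2 adjusted p = 0.977), and the interval covered 0.606 to 1.77 times the WT level. Its sign turned without both replicate 3 libraries (-0.11) and with limma-voom (-0.02). *Elp4*, which lies 3663 bases from *Pax6*, had a log2FC of 0.12 (adjusted p = 0.751). The antisense transcript *Pax6os1*, which overlaps *Pax6*, had 0 counts in all 6 libraries.

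*Zic1*, *Pax3* and *Olig2* pattern the neural tube along its dorsal to ventral axis, and all had few counts. *Zic1* (chr9:91358058-91365810, minus strand), a zinc finger gene of the dorsal neural tube, had 7, 18 and 4 counts in WT and 10, 27 and 4 in KO. Both genotypes were highest in replicate 2. The means were 9.22 ± 4.60 and 10.7 ± 5.19 normalized counts (SD, n = 3), a log2FC of 0.27 (SE 0.74, 95% interval -1.18 to 1.73, DESeq2 adjusted p = 0.925). It was 0.39 without both replicate 3 libraries. It turned to -0.16 without WT replicate 1 and to -0.25 without KO replicate 2.

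*Pax3*, a paired box gene of the dorsal neural tube and neural crest (chr1:78101267-78197134, minus strand), had 4, 2 and 2 counts in WT and 6, 14 and 2 in KO. A single library, KO replicate 2, held most of the KO reads. The log2FC was 1.15 (SE 1.06, 95% interval -0.92 to 3.23), with an unadjusted DESeq2 p of 0.277 and no adjusted p. Without KO replicate 2 it was 0.64, and without both replicate 3 libraries 1.65. The sums of 8 and 22 reads gave a scaled ratio of 2.53 with a counting interval of 1.09 to 6.57, which again leaves out the spread between libraries. *Olig2* (chr16:91225457-91228677, plus strand) had 1, 2 and 0 counts in WT and 0, 3 and 1 in KO. As it stayed at or under the floor of 3 counts in every library, no fold change is given.

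The proneural genes came next in the cascade. *Neurod1*, a bHLH gene of neurons that have left the cell cycle (chr2:79452521-79456751, minus strand), showed 32.0, 31.1 and 76.7 normalized counts in the WT libraries, against 24.3, 31.4 and 29.1 in KO. One shallow library, WT replicate 3 with 28 reads, stood above the other 5, and those 5 ran from 24.3 to 32.0 in both genotypes together. The log2FC was -0.62 (SE 0.42, 95% interval -1.44 to 0.21, DESeq2 adjusted p = 0.518), and without WT replicate 3 it was -0.17 (unadjusted p = 0.687). Without both replicate 3 libraries it was -0.18. *Cerkl* overlaps *Neurod1* on the same strand with 201 shared exon bases, 7.37% of the exons of *Neurod1*, and reached only 7.35 ± 3.38 normalized counts (SD, n = 3) in WT against 6.41 ± 3.61 in KO. *Gm26755*, on the opposite strand, shares 154 exon bases with *Neurod1*.

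*Neurog1* and *Neurog2*, which start neurogenesis upstream of *Neurod1*, were at the limit of detection. *Neurog1* (chr13:56250478-56252163, minus strand) had 5, 3 and 0 counts in WT and 1, 0 and 2 in KO. *Neurog2* (chr3:127633135-127635631, plus strand) had 2, 1 and 0 in WT and 0, 6 and 0 in KO. Each passed the floor in a single library, WT replicate 1 for *Neurog1* and KO replicate 2 for *Neurog2*. With 1 genotype at or under 3 counts throughout, only the ratio of the summed reads can be given, and its counting interval ran from 0.0590 to 1.44 around 0.345 for *Neurog1* and from 0.393 to 11.4 around 1.84 for *Neurog2*. Both intervals include equal levels and leave room for changes of several fold.

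*Hes5*, the Notch target of the group (chr4:154960923-154962371, plus strand), had 4, 8 and 0 counts in WT and 1, 7 and 3 in KO. In normalized counts these were 2.29, 5.65 and 0 against 0.564, 4.15 and 7.93, so that the highest KO value rested on 3 reads in the shallow replicate 3. A count of 0 in WT replicate 3 allows up to 8.21 normalized counts there, more than the value of any other library. Its log2FC of 0.29 (SE 1.28, 95% interval -2.21 to 2.79, with an unadjusted p of 0.818 in DESeq2) turned to -0.75 without both replicate 3 libraries. A transcript on the opposite strand, *Gm20421*, covers 31.8% of the exons of *Hes5*. Because the strand setting of the counting was not given, reads of the pair cannot be told apart.

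**Figure D2:**
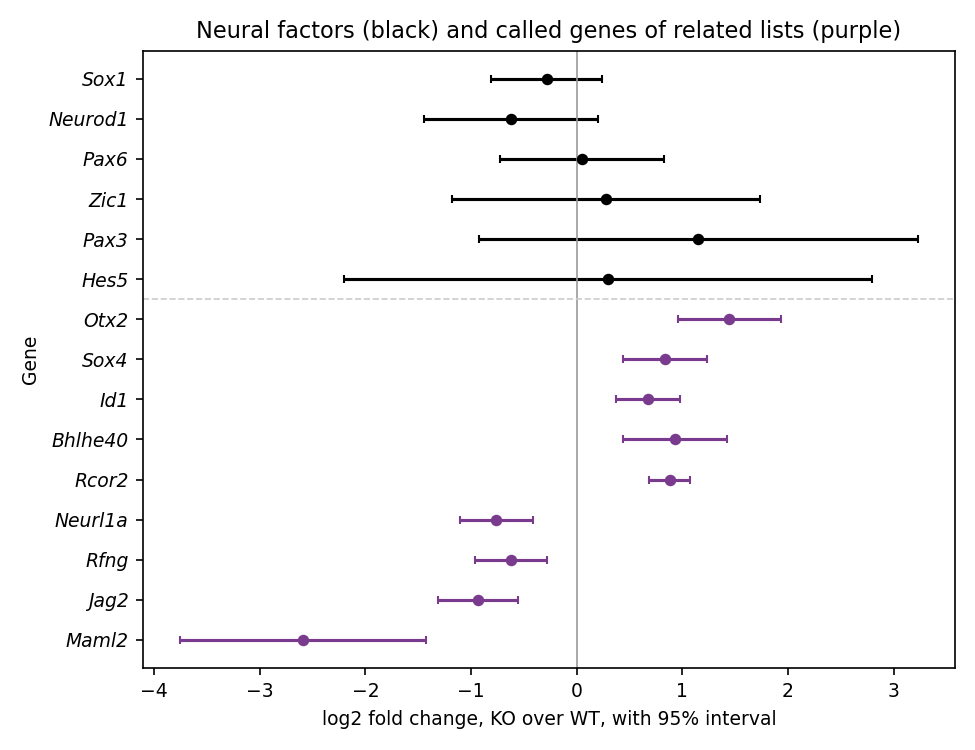
Log2 fold change of KO over WT with its 95% interval for 6 neural factor genes (black, above the dashed line) and for the called genes of the related neural, Notch and REST lists (purple). The intervals of all 6 neural factors cross 0, and those of *Pax3* and *Hes5*, the lowest counted, are the widest of the 6. *Neurog1*, *Neurog2* and *Olig2* are left out because a genotype was at or under 3 counts in every library.

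Levels between the genes were compared per length, in CPM per kb of exon. In WT the order was *Sox1* (0.629 ± 0.0591, SD, n = 3), *Neurod1* (0.601 ± 0.285), *Pax6* (0.0876 ± 0.0227), *Hes5* (0.0732 ± 0.0786), *Zic1* (0.0581 ± 0.0292), *Neurog1* (0.0371 ± 0.0332), *Pax3* (0.0173 ± 0.0107), *Neurog2* (0.0104 ± 0.00978) and *Olig2* (0.00986 ± 0.0106). The single gap between neighbours without overlapping libraries was that between *Neurod1* and *Pax6*. In KO the order was *Sox1* (0.522 ± 0.108, SD, n = 3), *Neurod1* (0.366 ± 0.0443), *Hes5* (0.106 ± 0.0887), *Pax6* (0.0928 ± 0.00597), *Zic1* (0.0666 ± 0.0326), *Neurog1* (0.0388 ± 0.0567), *Pax3* (0.0324 ± 0.0145), *Olig2* (0.0200 ± 0.0179) and *Neurog2* (0.0192 ± 0.0333). There again the libraries of *Neurod1* did not overlap those of the next gene, and all lower neighbours overlapped. With the longest transcript as length, *Pax6* in KO stood at 0.245, above *Hes5* at 0.1135, so the order of this pair depends on the length used. *Sox1* and *Neurod1* thus formed an upper pair in both genotypes, and both lay below the median of 1.40 over all genes with a count.

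**Figure D3:**
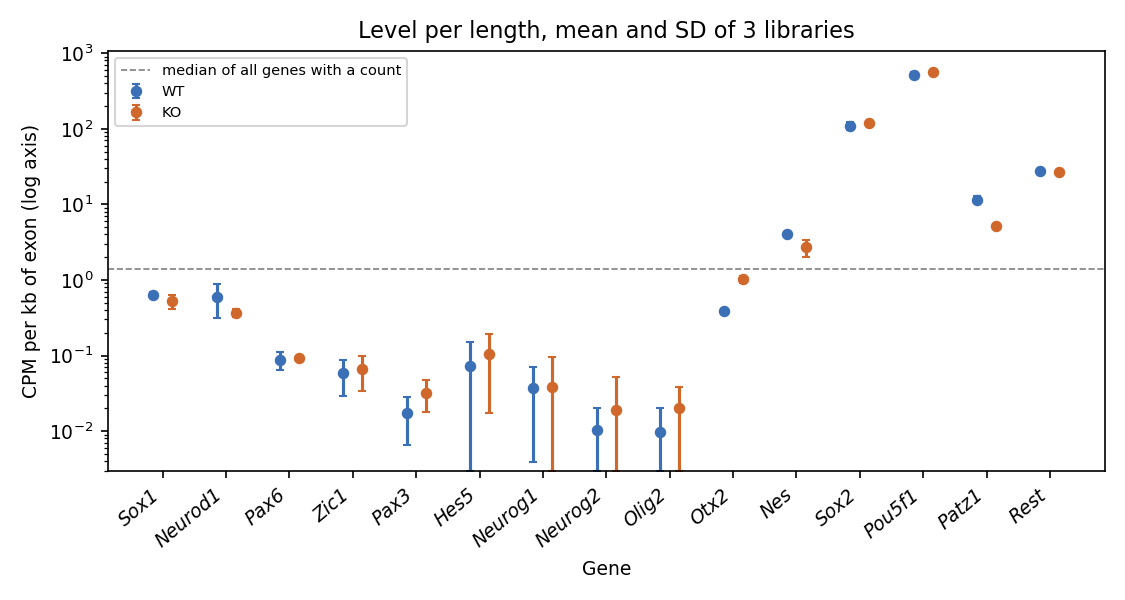
Level per length (CPM per kb of exon, log axis) as mean and SD of 3 libraries in WT (blue) and KO (orange), for the 9 neural factors and for 6 genes given as a scale. The dashed line is the median of all genes with a count, 1.40. Error bars that would reach 0 or less end at the lower edge of the plot. All 9 neural factors lie below the line, far under *Sox2* (110 in WT) and *Pou5f1* (518).

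Detection of the 9 genes was compared library by library, with the shallow replicate 3 having the fewest over the floor. Over 3 counts were reached by 7, 5 and 4 of the 9 in WT replicates 1 to 3, and by 5, 7 and 4 in KO replicates 1 to 3. With every library scaled to the total count of the shallowest, with no account of the share on *Rn45s*, the numbers became 3, 4 and 4 in WT and 3, 5 and 4 in KO. The sets of reads were small in both genotypes. Reads of the 9 genes together made up 6.20, 6.33 and 6.52 CPM in WT and 5.13, 5.29 and 6.04 in KO, most of them on *Sox1*, *Neurod1* and *Pax6*. As summed normalized counts they came to 164, 168 and 197 in WT and 138, 146 and 182 in KO. KO was lower in each of the 3 pairs of equal replicate number on both scales, and the genotypes overlapped in the normalized counts but not in CPM. In the replicate 3 pair, *Neurod1* alone held 76.7 normalized counts in WT, from 28 reads, against 29.1 in KO. The lower KO sum of that pair rests on this gene in 1 shallow library.

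Genes of a like level gave the background. Of 4934 tested genes with a mean of 5 to under 100 normalized counts, 284 were called (5.76%). The median absolute log2FC of the called genes was 1.73, and the median SE of all tested genes in this range was 0.48. The SE of *Sox1*, *Pax6* and *Neurod1* lay below that median, and that of *Zic1* above it.

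**Figure D4:**
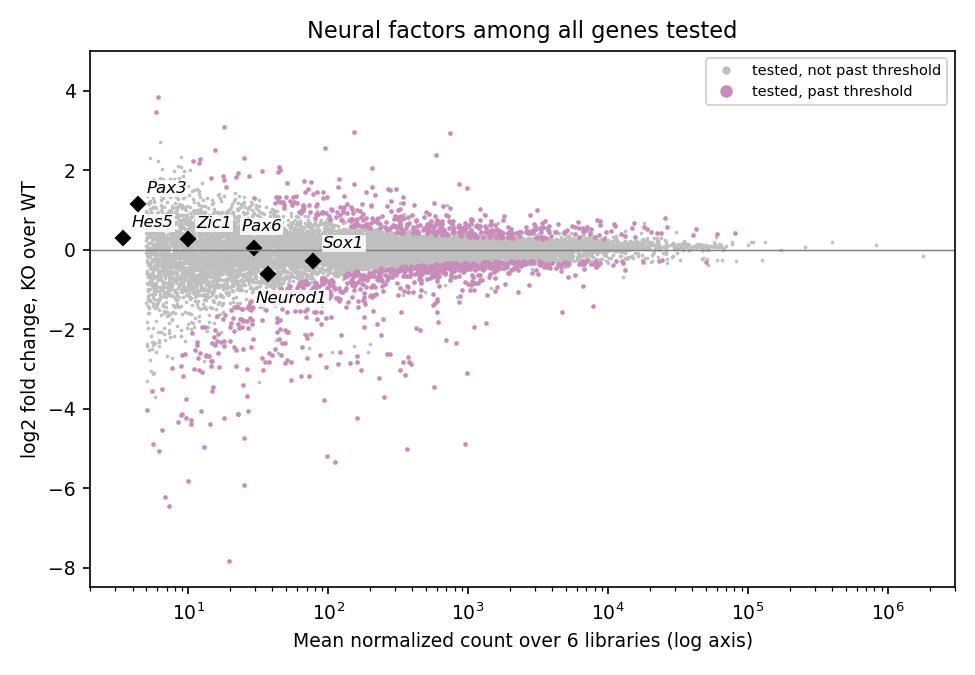
Log2 fold change of KO over WT against the mean normalized count over the 6 libraries (log axis) for all genes with an adjusted p, with called genes in purple, and for 6 neural factors as black diamonds. *Sox1*, *Neurod1*, *Pax6* and *Zic1* sit inside the cloud of genes that did not pass. *Pax3* and *Hes5* lie to the left of it, under the level at which an adjusted p was given.

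The closest relatives of the 9 genes were compared next. The gene and marker lists from here on were chosen with earlier results of these data known. Their shares of called genes beside the share of all genes are therefore only a description. Of 27 paralogs, 14 had an adjusted p and 0 passed (0 at an unadjusted p under 0.05, 0 by edgeR and 0 by limma-voom), where 7.49% of all tested genes were called. Their median log2FC was -0.19 against 0.0087 over all genes tested. Some paralogs were abundant in both genotypes. *Sox2*, which shares its HMG box class with *Sox1* and is a core ESC factor, stood at 110 CPM per kb in WT and 119 in KO. *Hes1*, a paralog of *Hes5* and the most abundant Hes gene here, stood at 14.99 and 15.04. *Zic2*, a paralog of *Zic1*, had a log2FC of -0.31 (adjusted p = 0.540). At the other end, 9 of the 27 paralogs never exceeded 3 counts.

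Other genes of the neural plate and of progenitors were read in the same fit. Of 32 in the list, 23 had an adjusted p, 2 were higher in KO and 0 lower, a share near the 7.49% called over all genes tested, with a median log2FC of -0.10. *Otx2*, a homeobox gene of the anterior neural plate that also marks the exit from naive pluripotency, rose from 44.6, 43.8 and 46.5 normalized counts in the WT libraries to 123, 126 and 114 in those of KO, with no overlap. Its log2FC was 1.45 (SE 0.25, DESeq2 adjusted p = 7.56e-07) and stayed called in each of 13 alternatives. *Sox4*, a factor of immature neurons and many other embryonic cells, rose from 217 ± 56.2 to 382 ± 63.8 (log2FC 0.84, SE 0.20, adjusted p = 0.00121), and missed the threshold without WT replicate 1 (0.0592).

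*Nes*, the intermediate filament gene of neural progenitors, lay next to the threshold. The WT libraries held 669, 704 and 778 normalized counts, and the KO libraries 334, 536 and 618. The genotypes did not overlap, and KO replicate 1 was the lowest. The log2FC was -0.54 (SE 0.19, DESeq2 adjusted p = 0.0509). *Nes* was called lower with the replicate block (adjusted p = 0.000235), with the low count filter (0.0469), without KO replicate 3 (0.00521) and without both replicate 3 libraries (0.00648), while without KO replicate 1 its log2FC was -0.32 (0.389). In 9 of 13 alternatives *Nes* was not called, among them edgeR (adjusted p = 0.139) and limma-voom (0.0756).

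Partners and inhibitors of the bHLH factors were read next. E proteins, the obligate partners of proneural factors, had log2FC of -0.08 for *Tcf3*, -0.02 for *Tcf4* and -0.20 for *Tcf12*, none past the threshold. Of the 8 genes in the list, all tested, 2 were higher in KO and 0 lower, where 2.7% of all tested genes were higher and 4.78% lower. *Id1*, which binds E proteins and keeps them from DNA, rose from 415 ± 78.4 to 655 ± 58.7 normalized counts (SD, n = 3, log2FC 0.68, SE 0.15, DESeq2 adjusted p = 0.000488). *Bhlhe40*, a bHLH repressor, rose from 88.1 ± 7.71 to 166 ± 50.7 (0.93, SE 0.25, adjusted p = 0.00558). *Bhlhe40* missed the threshold without WT replicate 1 or KO replicate 2, with an adjusted p of up to 0.277. *Id3*, the gene of this list with the highest level per length in WT, had a log2FC of -0.26 (adjusted p = 0.394), and was called lower under the replicate block.

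In the Notch pathway, which feeds into *Hes5*, 25 of 27 genes had an adjusted p, 0 were higher and 3 lower in KO, and the median log2FC was 0.04. Over all tested genes 4.78% were lower. *Jag2*, a ligand, fell from 240 ± 19.8 to 130 ± 24.95 normalized counts (SD, n = 3, log2FC -0.93, SE 0.19, DESeq2 adjusted p = 7.49e-05). *Maml2*, a coactivator of the Notch and RBPJ complex, had 33.7, 29.0 and 21.9 in WT and 5.08, 5.34 and 2.64 in KO (log2FC -2.59, SE 0.59, adjusted p = 0.000525). Both stayed called in every alternative run for them. *Rfng*, a glycosyltransferase that modifies Notch receptors, fell from 283 ± 25.6 to 184 ± 18.04 (-0.62, SE 0.17, adjusted p = 0.00688), and missed the threshold without WT replicate 1 or KO replicate 2 (adjusted p of up to 0.160). *Rfng* lies on chromosome 11, where the median log2FC of 1258 tested genes was -0.27, against 0.02 on the other autosomes, and the part of this shift in its value was not tested. The receptor *Notch1* (log2FC 0.06, adjusted p = 0.921) and the effector *Rbpj* (0.07, adjusted p = 0.885) were not called. The replicate block added *Maml1*, another coactivator, as lower. None of the 9 neural factors lies on chromosome 11.

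REST and its corepressors hold neuronal genes silent outside neurons. Of 9 genes, all tested, 1 was higher in KO and 0 lower, where 2.7% of all tested genes were higher. *Rcor2*, a corepressor that joins REST or other factors to the demethylase KDM1A, rose from 2060, 1962 and 1859 normalized counts in the WT libraries to 3855, 3431 and 3549 in those of KO. The genotypes were well apart, with a log2FC of 0.88 (SE 0.10, DESeq2 adjusted p = 2.54e-16), called in each of 13 alternatives. *Rest* itself had a log2FC of -0.03 (SE 0.10, adjusted p = 0.941) and *Kdm1a* one of 0.12 (adjusted p = 0.669).

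Genes of differentiated neurons were also counted. Of 22, 14 had an adjusted p, 0 were higher and 1 lower, a share near the 7.49% called over all genes, with a median log2FC of 0.17. The summed level of the 22 ran from 9885 to 10404 normalized counts in WT and from 10911 to 12030 in KO. *Neurl1a*, which encodes a ubiquitin ligase of neurons, fell from 283 ± 19.1 to 170 ± 27.8 normalized counts (SD, n = 3, log2FC -0.76, SE 0.18, DESeq2 adjusted p = 0.000651), and missed the threshold without KO replicate 2 (0.0538). With the replicate block, a fit that called 14.6% of all genes it tested, 3 of 11 tested genes of this list passed, *Gap43* and *Stmn2* being higher. *Tubb3*, a neuronal tubulin that these ESCs express at 77.4 CPM per kb in WT and 80.7 in KO, was not called (log2FC 0.09, adjusted p = 0.837).

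Markers of other cell types that could be present were read in the same fit, in which 7.49% of all tested genes were called. Of 10 ESC markers, all tested, 1 was higher and 0 lower in KO (*Dppa5a*), with 3 of 10 higher under the replicate block, in which 14.6% of all genes tested were called. Their summed level ran from 152760 to 162920 normalized counts in WT and from 173020 to 180400 in KO. Of 7 tested neural crest markers (9 in the list) 1 was higher (*Twist1*), of 6 primitive endoderm markers, all tested, 1 was higher (*Dab2*), and of 4 tested trophoblast markers (6 in the list) 2 were lower (*Cdx2* and *Krt8*). The summed level of the trophoblast markers ran from 956 to 1082 normalized counts in WT and from 702 to 812 in KO. Of 6 tested mesendoderm markers (8 in the list) 0 were called (DESeq2; 1 at an unadjusted p under 0.05, 0 by edgeR and 0 by limma-voom), the one being *Foxa2*, which had no adjusted p, with 0 counts in every WT library and 22, 7 and 2 in KO. Of 3 tested fibroblast markers (7 in the list) 1 was higher (*Thy1*), and 3 of the 7 never exceeded 3 counts. The summed level of the fibroblast markers ran from 87.5 to 110 normalized counts in WT and from 134 to 169 in KO. The summed levels of the other marker lists overlapped between the genotypes. They were 467 to 624 in WT and 534 to 576 in KO for neural crest, and 869 to 1163 and 703 to 1036 for mesendoderm. For primitive endoderm they were 2136 to 2481 in WT and 1976 to 2222.5 in KO. Without 1 library, the number of calls over all genes ranged from 583 to 1341, and several of these markers missed the threshold. *Cdx2* did so in each of the 6 such fits (DESeq2 adjusted p of up to 0.291) with a log2FC of -0.80 to -0.65, and *Thy1* in each but that without WT replicate 3 (up to 0.248) with 0.67 to 0.94. *Twist1* did so with edgeR and without WT replicate 1 or 3 or KO replicate 1 or 2 (up to 0.511, log2FC 0.71 to 1.22 over the 6 fits), *Dab2* without WT replicate 1 or 2 (up to 0.0770, log2FC 1.16 to 1.49 over the 6 fits), and *Dppa5a* without replicate 2 of either genotype (up to 0.0575, log2FC 0.33 to 0.45). The part of these cell types in the values of the neural factors was not tested.

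The genomic neighbours of the 9 genes were compared last. Of the nearest genes on each side and those overlapping, 14 had an adjusted p and 1 was called, a share near the 7.49% of all genes tested. It was *Tifab*, which lies 71593 bases from *Neurog1* on chromosome 13, with 23, 35 and 4 counts in WT and 4, 2 and 1 in KO, or 16.3 ± 7.39 and 2.03 ± 0.755 normalized counts (SD, n = 3). The log2FC was -3.17 (SE 0.86, DESeq2 adjusted p = 0.00597), and it missed the threshold when WT replicate 2, KO replicate 1 or KO replicate 2 was left out (adjusted p of up to 0.215), with a log2FC of -3.43 to -2.70 over the 6 fits without 1 library. *Cxcl14*, the neighbour of *Neurog1* on the other side at 36480 bases, had 34.8 ± 11.2 and 27.2 ± 7.61 (log2FC -0.35, adjusted p = 0.782). *Olig1*, the paralog that lies 41095 bases from *Olig2*, had 9, 12 and 4 counts in WT and 7, 15 and 4 in KO, with overlapping genotypes. *Pank4*, 1752 bases from *Hes5*, had a log2FC of 0.01 (adjusted p = 0.980).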

How the data were processed

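Stranded libraries of ribosome-depleted total RNA were sequenced from 3 WT and 3 *Patz1* KO ESC samples. Reads were aligned to mm10 by the authors, whose deposited values are unnormalized counts for each gene symbol, 1 library per file. The submitters' processing notes name TopHat2 2.1.1, Bowtie2 2.3.1.0, featureCounts 1.6.2 and DESeq2, while the gene annotation, strand setting and handling of duplicates are not given in the sources used here.

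All 23420 symbols entered 1 fit, of which 19404 had a count and 15309 an adjusted p. The two-sided Wald test of DESeq2 (version 1.42.0, R 4.3.3) with Benjamini-Hochberg adjustment and a threshold of 0.05 followed the methods of the study. Median-of-ratios size factors, genotype as the only term, independent filtering optimised at 0.1 and unshrunken fold changes were chosen here. Intervals are the estimate ± 1.96 SE. Ratios of summed counts are scaled by the size factors, with exact 95% intervals. Groups came from the sample titles. Lengths and positions came from GENCODE M21 (GRCm38, the build of mm10) for 23010 symbols (1273 matched by an older name), and the level per length uses the union of exons.

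By correlation the replicate numbers formed pairs: over 11524 genes, the WT and KO libraries of a number deviated from the mean of their genotype together, with r = 0.469, 0.619 and 0.684. Between unequal numbers r ran from -0.542 to 0.138. These values and the numbers in the titles are the source of the pairing. All 15 pairs of libraries differed by more than sampling noise (chi-square of 9.50 or more per degree of freedom). By this measure KO replicates 2 and 3 were nearest, among WT libraries, to that of their own number (29.4 and 9.50). KO replicate 1 was nearer to WT replicate 2 (33.6) than to WT replicate 1 (55.5).

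Alternatives were edgeR 4.0.16, limma-voom (limma 3.58.1), TMM size factors, a filter of 10 or more counts in 3 or more libraries, the replicate block, no independent filtering, each library left out, both replicate 3 libraries left out, a floor of 10 counts, equal total counts, the longest transcript as length, and totals without *Rn45s* and *Lars2*. The code was tested on simulated counts. The 9 genes and all lists were chosen with earlier results of these data known. Named were the 9 genes, *Patz1*, list genes past the threshold, some of the overlapping and nearest genes, and the 3 genes most like *Sox1*. Of the 2 genes of highest WT level per length in each list, some were named as a scale. Others, such as *Gbx2*, *Ncstn* and *Hdac1*, were not. Other genes (*Nes*, *Rest*, *Notch1*, *Tcf4*, *Tcf12*, *Zic2*, *Foxa2*, *Pou5f1*, *Nanog*, *Gap43*, *Maml1*) were named after their values were seen. Some list genes are not reported here.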

Additional observations from a re-analysis of the deposited data

How the results depend on the processing

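Of the 9 neural factors, 0 passed in every alternative run. For the 6 with a fold change, 63 of 72 alternatives kept the direction and 9 reversed it, with a smallest unadjusted p of 0.0850 and a smallest adjusted p of 0.298. *Pax6* reversed with limma-voom (-0.016) and without both replicate 3 libraries (-0.11), and ran from -0.052 to 0.18 with 1 library left out. *Hes5* was -0.75 without both replicate 3 libraries and ran from -0.34 to 1.34 with 1 library left out, and *Zic1* from -0.25 to 0.71. The cause was not tested.

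The number of called genes was 1146 without and 2131 with the replicate block, a rise for which the cause was not tested, and 583 to 1341 with 1 library left out, the lowest without KO replicate 1. The calls made up 7.49% of the genes tested without the block and 14.6% of those tested with it. The block also gave 3 calls for neuronal differentiation and 3 for the ESC markers. With 1 library left out, calls ran from 0 to 2 for neuronal differentiation, from 1 to 2 for bHLH partners and for trophoblast, and from 0 to 1 for ESC, neural crest, primitive endoderm and fibroblast markers. Neural crest had 0 with edgeR, mesendoderm 1 (*Foxa2*) without independent filtering, and without both replicate 3 libraries trophoblast had 1 and fibroblast 0. The block changed no call of the 9 factors. It added *Nes*, *Id3*, *Maml1*, *Gap43*, *Stmn2*, *Pou5f1* and *Zfp42* and changed no other call of the lists.

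By construction, a floor of 10 counts left 3 factors in WT replicate 1, 2 in WT replicate 3 and 3 in KO replicate 1, and equal total counts left 3 in WT replicate 1 and 3 in KO replicate 1. With the longest transcript as length, the level of *Pax6* was 0.231 in WT and 0.245 in KO and that of *Pax3* 0.0518 in KO. Without *Rn45s* and *Lars2* that of *Pax6* in KO was 0.101. The 5 lowest factors had 0 to 14 counts per library, which limits the precision of their values.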
